A study of Homo sapiens with 5 samples.

Results

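Intermediate filaments are rope-like protein polymers that give a cell and its nucleus mechanical strength. The genes described here are 10 of the family, taken by their symbols from the 46427 genes of the deposited table: NES (nestin), VIM (vimentin), GFAP (glial fibrillary acidic protein), SYNM (synemin), the keratins KRT7, KRT8, KRT18 and KRT19, and the lamins LMNA and LMNB1. The study sequenced RNA of the established human glioblastoma line U87 MG, in 5 libraries. The 3 sorted libraries, numbered 1, 2 and 3 under the title f2n11_csc, carry the genotype entry Cancer stem cells and the treatment entry CD133 positive. The 2 control libraries, numbered 2 and 3 under the title u87_control, carry the genotype entry CONTROL and the treatment entry None. PROM1 is the gene of CD133, a membrane protein. The meaning of the code f2n11 is not given, and the samples used here hold neither CD133-negative nor mock-sorted cells, so the sort itself and the CD133-positive state cannot be told apart. The labels do not say that the libraries of a group came from separate cultures. All p-values below therefore set the difference between groups against the variation among these samples only, and that variation may be technical. In RNA of many cells together, fewer cells of a type and less RNA per cell cannot be told apart.

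Cytoplasmic filaments differ by cell type: simple epithelia build them from paired type I and type II keratins, mesenchymal cells from vimentin, and mature astrocytes from GFAP with vimentin. Nestin and synemin join vimentin in the same filaments, and nestin is known as a marker of neural progenitors and of glioma stem-like cells. Lamins are the filaments of the nucleus and form the lamina under its inner membrane.

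The sorted libraries 1, 2 and 3 held 17716823, 27335199 and 18985803 counts, and the control libraries 2 and 3 held 29137978 and 29841238. CPM below are counts relative to the library total after correction by TMM factors, which set the libraries to a common level on the bulk of their genes. TPM are the authors' values, relative to both gene length and library total. Protein-coding genes took only 60.9% of the counts of sorted library 3, which set it apart from sorted libraries 1 and 2 (73.8% and 72.6%) and control libraries 2 and 3 (79.1% and 82.5%). The abundant noncoding 7SL RNA took 10.9%, 12.0% and 24.4% of the counts in sorted libraries 1, 2 and 3, and 6.29% and 5.71% in control libraries 2 and 3. CDKN2A, CDKN2B and MTAP, which U87 MG is known to have lost, had 0 counts in all 5 libraries. PROM1, whose protein was the sort antigen, had 7, 0 and 0 counts in sorted libraries 1, 2 and 3 and 12 and 0 in control libraries 2 and 3, so its RNA did not separate the groups.

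Of the 10 filament genes, 8 passed the filter on low counts, and GFAP and KRT19 did not. KRT8 and NES rose in sorted cells and 0 fell, by edgeR's quasi-likelihood test with Benjamini-Hochberg adjustment over 16304 genes and a threshold of 0.05. Among all tested genes 2.2% rose and 2.4% fell by the same rule, 4.61% in all. At an unadjusted p under 0.05 edgeR placed 4 of the 8 higher and 0 lower, against 12.2% of all tested genes higher and 13.6% lower. DESeq2, which called 8.77% of all genes higher and 8.16% lower, called KRT8, NES and VIM higher and 0 lower. The median log2 fold change was 0.68 for the 8 tested filament genes and -0.00 for all tested genes. In NES, VIM, KRT8 and LMNA every sorted library lay above both controls, which was the case for 22.7% of all tested genes, and in 0 of the 8 did every sorted library lie below them, against 27.7% of all genes (50.4% on either side).

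**Figure D1:**
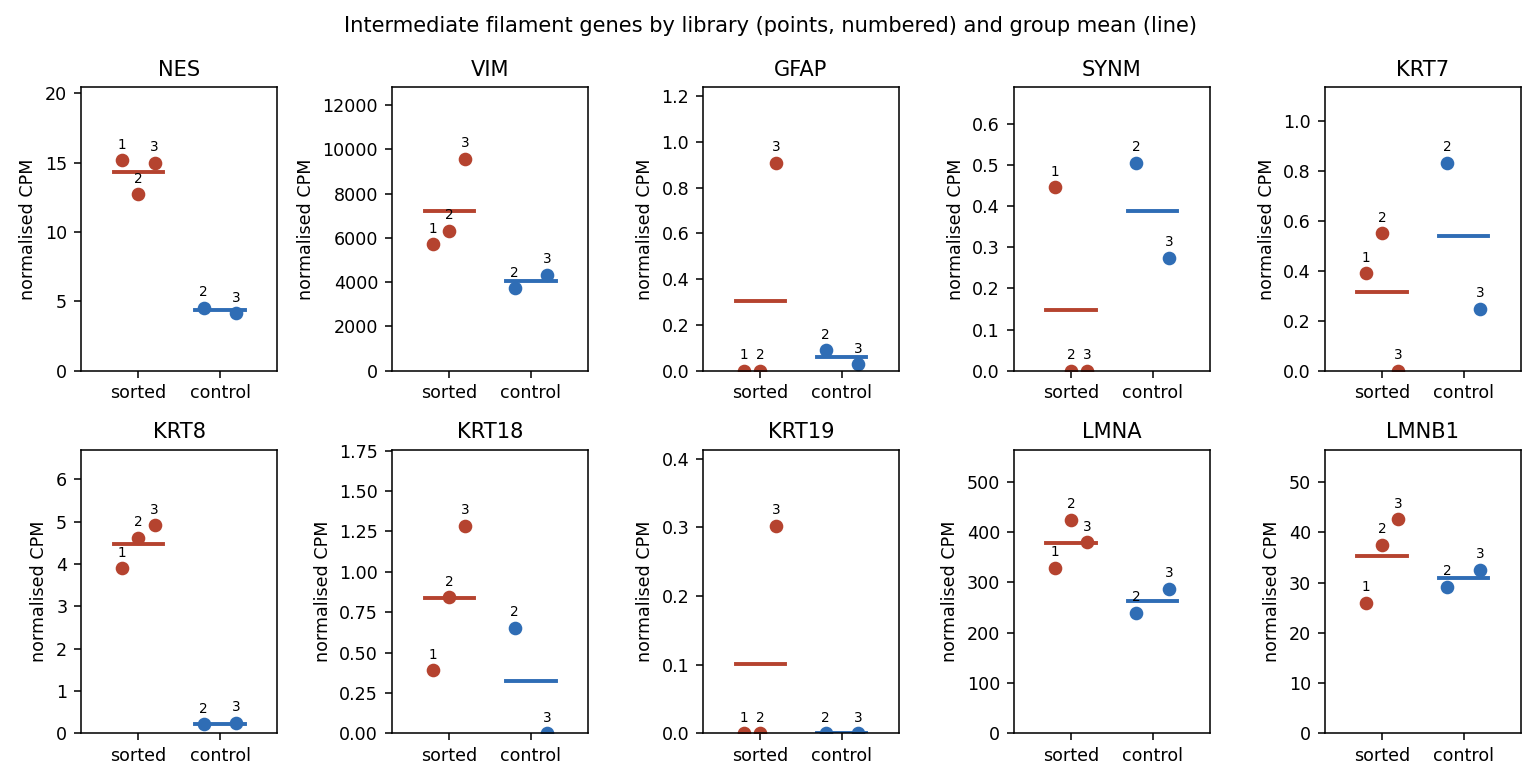
Normalised CPM of the 10 filament genes in each library, with the 3 sorted libraries on the left and the 2 control libraries on the right of each panel; points carry the library number, lines are group means, and every axis starts at 0 with its own scale. The sorted points of NES, VIM, KRT8 and LMNA all lie above the control points, and the remaining genes overlap.

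VIM was by far the most abundant cytoplasmic filament gene in both groups. The level of VIM was 3189, 3380 and 2397 TPM in sorted libraries 1, 2 and 3 and 2906 and 3746 TPM in control libraries 2 and 3. It ranked 4, 4 and 7 among 19672 protein-coding genes in sorted libraries 1, 2 and 3, and 7 and 5 in control libraries 2 and 3. Of the summed TPM of the 67 genes for cytoplasmic filament proteins in the table, VIM made up 99.2%, 99.1% and 99.3% in the sorted libraries and 98.9% and 99.0% in the controls. The cytoplasmic filament transcripts, lamins not included, were thus nearly all vimentin in every library.

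By counts, VIM (chromosome 10, 17228241 to 17237593, GRCh38) had 5710, 6320 and 9559 CPM in sorted libraries 1, 2 and 3 and 3726 and 4343 CPM in control libraries 2 and 3. All 3 sorted libraries were above both controls, and sorted library 3 was the highest by a wide margin. The log2 fold change, 0.84 (SE 0.33), did not pass (edgeR's quasi-likelihood test, adjusted p = 0.183). Without sorted library 3 the log2 fold change was 0.58 and edgeR's adjusted p was 0.00355, in a fit where 15.4% of all genes rose, and DESeq2 on all libraries gave 0.85 with an adjusted p of 0.0393, where 8.77% of all genes rose. On the authors' TPM the log2 difference was -0.16, on a scale where the median of all genes lay at -0.64. The antisense RNA gene VIM-AS1 overlaps the first 1745 bases of VIM and had 12.1, 18.1 and 27.8 CPM in sorted libraries 1, 2 and 3 and 21.1 and 22.8 CPM in control libraries 2 and 3, with a log2 fold change of -0.18 (edgeR's adjusted p = 0.804). The groups of VIM-AS1 overlapped. In normalised CPM sorted library 3 held the highest value of both rows. Its TMM factor was 0.70, against 1.01 and 1.00 in sorted libraries 1 and 2 and 1.16 and 1.22 in control libraries 2 and 3. By TPM it held the lowest value of VIM, 2397 TPM.

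NES (chromosome 1, 156668763 to 156677407) had 15.2, 12.7 and 15.0 CPM in sorted libraries 1, 2 and 3 and 4.54 and 4.14 CPM in control libraries 2 and 3, from 198 to 347 counts in sorted and 153 and 151 in control libraries 2 and 3. The sorted libraries lay close together and well above both controls. The means were 14.3 ± 1.36 CPM in sorted cells (SD, n = 3) and 4.34 ± 0.287 CPM in controls (SD, n = 2), a log2 fold change of 1.72 (SE 0.25; edgeR's quasi-likelihood test, adjusted p = 0.0253). Per length, the level was low, at 2.84, 2.28 and 1.26 TPM in sorted libraries 1, 2 and 3 and 1.19 and 1.20 TPM in control libraries 2 and 3. Sorted library 3 lay next to the controls on that scale. It is also the library with 24.4% of its counts in 7SL RNA, whose part in the TPM values was not tested. The call was lost on the TPM scale (adjusted p = 0.298, limma-trend on log2(TPM + 1)), with scaling by library size alone (edgeR's adjusted p = 0.0753) and when control library 2 (0.304), control library 3 (0.328), sorted library 1 (0.0843) or sorted library 2 (0.0736) was left out, while the log2 fold change in those 4 fits and in that without sorted library 3 stayed between 1.64 and 1.80. With the replicate number as a block, edgeR's adjusted p for NES was 0.0727.

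Within each library the ratio of NES to VIM does not depend on how libraries are scaled, apart from the 0.1 TPM added here to both genes. The log2 ratio of (TPM + 0.1) was -10.08, -10.47 and -10.78 in sorted libraries 1, 2 and 3 and -11.14 and -11.50 in control libraries 2 and 3. Every sorted library was above both controls, by 0.87 on average, with p = 0.2 in a two-sided exact permutation test. That is the smallest p that 3 against 2 libraries allow, so 0.05 cannot be reached. Of the 3 ratios tested here this one had the lowest p on the TPM scale, and after Benjamini-Hochberg adjustment over the 3 each exact permutation p was 0.4.

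Of the 13013 protein-coding genes tested, the pattern of NES over the 5 libraries was most closely matched by SMOC1, CCL26, CUL7, RGS2 and ASB9, by the root mean square difference of centred log2(CPM + 1). That difference was 0.0591 for SMOC1, a secreted calcium-binding protein, 0.0688 for CCL26, a chemokine, 0.0799 for CUL7, a ubiquitin ligase scaffold, 0.0802 for RGS2, a regulator of G protein signalling, and 0.0817 for ASB9. SMOC1 had 30.1, 25.9 and 28.9 CPM in sorted libraries 1, 2 and 3 and 8.64 and 8.57 CPM in control libraries 2 and 3. These genes were chosen for their likeness, so the values are a description.

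GFAP (chromosome 17, 44903159 to 44915500), the filament protein of mature astrocytes, had 0, 0 and 12 counts in sorted libraries 1, 2 and 3 and 3 and 1 counts in control libraries 2 and 3. The counts of sorted library 3 correspond to 0.908 CPM, and a count of 0 in the other sorted libraries allows up to 0.167 and 0.110 CPM, taken as 3 counts. GFAP was thus at or near the detection limit in every library but sorted library 3. Of 7 astrocyte markers, AQP4 and ALDH1L1 had 0 counts in all 5 libraries, 4 were tested and 0 passed the threshold by edgeR or DESeq2, or at an unadjusted p under 0.05 by edgeR. Of all tested genes edgeR called 2.2% higher and 2.4% lower, and 12.2% and 13.6% unadjusted. DESeq2 called 8.77% higher and 8.16% lower, so 0 of 4 genes is near the shares of all genes. The summed level of the 7 was 286 to 503 CPM in sorted libraries and 293 and 256 CPM in control libraries 2 and 3. GJA1 had 206, 185 and 205 CPM in sorted libraries 1, 2 and 3 and 184 and 147 CPM in controls. SLC1A3 had 39.3, 35.9 and 33.8 CPM against 48.9 and 41.9 CPM. GLUL had 70.6, 63.4 and 262 CPM against 58.9 and 65.7 CPM, so the sum of 503 CPM in sorted library 3 includes a GLUL value high in that library alone. SYNM (chromosome 15, 99105080 to 99141767), which links vimentin-type filaments to other structures, had 8, 0 and 0 counts in sorted libraries 1, 2 and 3 and 17 and 10 in control libraries 2 and 3. The log2 fold change of SYNM was -1.37 with an SE of 1.76 (edgeR's adjusted p = 0.683), and the groups overlapped.

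KRT8 is the type II keratin of simple epithelia and pairs with the type I keratin KRT18. The KRT8 row (chromosome 12, 52897191 to 52949860) had 70, 126 and 65 counts in sorted libraries 1, 2 and 3 and 7 and 9 counts in control libraries 2 and 3. Exact Poisson 95% intervals of these counts were 54.6 to 88.4, 105 to 150 and 50.2 to 82.8 in sorted libraries 1, 2 and 3 and 2.81 to 14.4 and 4.12 to 17.1 in control libraries 2 and 3, and they cover counting error only. No sorted interval met a control interval.

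In normalised units KRT8 was at 3.90, 4.62 and 4.92 CPM in sorted libraries 1, 2 and 3 and at 0.208 and 0.246 CPM in control libraries 2 and 3. The means were 4.48 ± 0.521 CPM in sorted cells (SD, n = 3) and 0.227 ± 0.0274 CPM in controls (SD, n = 2). KRT8 rose by a log2 fold change of 4.27 (SE 0.46), or 19.3-fold (edgeR's quasi-likelihood test, adjusted p = 0.0152). The call held on the TPM scale (adjusted p = 0.0293, limma-trend on log2(TPM + 1)), where the level was 2.16, 2.33 and 1.12 TPM in sorted libraries 1, 2 and 3 and 0.127 and 0.184 TPM in control libraries 2 and 3. It was lost without control library 2 (edgeR's adjusted p = 0.230), control library 3 (0.222), sorted library 1 (0.0696) or sorted library 2 (0.0610), with log2 fold changes of 4.14 to 4.38 over the fits that each left out 1 library.

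KRT8 has many processed copies of similar sequence in the genome. The table held 50 rows of KRT8 pseudogenes, of which 13 had counts in at least 1 library. The copies KRT8P12 and KRT8P46 held the most counts among them. KRT8P12 had 5.13, 4.18 and 2.65 CPM in sorted libraries 1, 2 and 3 and 3.56 and 4.49 CPM in control libraries 2 and 3. Its log2 fold change was -0.01 (SE 0.39, edgeR's adjusted p = 0.991). KRT8P46 had 1.00, 1.98 and 2.72 CPM against 2.94 and 2.60 CPM, with a log2 fold change of -0.55 (SE 0.51, edgeR's adjusted p = 0.555).

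When aligned, KRT8P12 was 90.5% identical to the KRT8 coding sequence over 1385 bases, and KRT8P46 was 91.7% identical over 1423 bases. Of all stretches of 50 bases in the KRT8 coding sequence, 45.6% occurred without a mismatch in a transcript of another gene, and of stretches of 100 bases 8.37% did. Both shares were 0 for the coding sequences of NES, LMNA and LMNB1. Sharing was not particular to KRT8, at 58% and 20.4% for KRT18, 53.2% and 39.9% for VIM and 43.5% and 40.7% for SYNM. The shares were 13.5% and 9.71% for KRT7, 11.2% and 4.52% for GFAP and 2.09% and 0 for KRT19. The assignment of reads that map to several places is not stated in the labels.

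The pseudogene rows of KRT8 together had 8.08, 6.89 and 6.88 CPM in sorted libraries 1, 2 and 3 and 8.64 and 8.82 CPM in control libraries 2 and 3. They held more counts than the KRT8 row in every library. The KRT8 row and its pseudogene rows summed to 12.0, 11.5 and 11.8 CPM in sorted libraries 1, 2 and 3 and to 8.84 and 9.06 CPM in control libraries 2 and 3, means of 11.8 ± 0.242 CPM (SD, n = 3) and 8.95 ± 0.155 CPM (SD, n = 2). The sum was 1.31 times as high in sorted cells, and the groups did not overlap, against 19.7 times for the KRT8 row alone. The pseudogene rows are the larger part of the sum in every library, so these ratios do not have a like base. The KRT8 row held 32.6%, 40.1% and 41.7% of the sum in sorted libraries 1, 2 and 3 and 2.35% and 2.72% in control libraries 2 and 3. Whether reads moved between gene and copies in the counting was not tested.

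**Figure D2:**
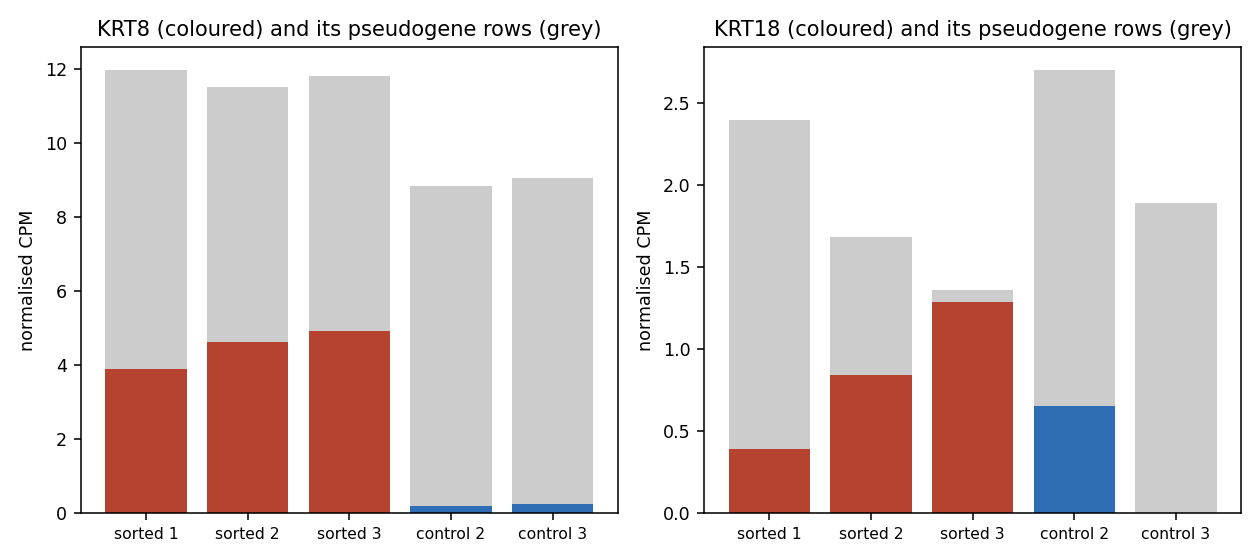
Normalised CPM of KRT8 (left) and KRT18 (right) in each library, stacked with the sum of their pseudogene rows in grey; sorted libraries are red and control libraries blue. For KRT8 the coloured share is 32.6% to 41.7% of the bar in sorted libraries and 2.35% and 2.72% in controls, while the whole bars differ 1.31-fold.

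The partner keratin KRT18 (chromosome 12, 52948855 to 52952906) had 7, 23 and 17 counts in sorted libraries 1, 2 and 3 and 22 and 0 in control libraries 2 and 3. The groups overlapped, with control library 3 at 0 and control library 2 among the sorted libraries, and the log2 fold change of 1.35 had an SE of 1.55 (edgeR's adjusted p = 0.643). With its 66 pseudogene rows, 11 of them with counts, KRT18 summed to 2.40, 1.68 and 1.36 CPM in sorted libraries 1, 2 and 3 and 2.70 and 1.89 CPM in control libraries 2 and 3, and the groups overlapped. The spans of KRT8 and KRT18 overlap by 1006 bases, and the strand setting of the counting is not given, so reads of that stretch could fall in either row. The log2 ratio of KRT8 to KRT18, on TPM + 0.1, was 2.57, 1.86 and 1.25 in sorted libraries 1, 2 and 3. It was -1.72 and 1.50 in control libraries 2 and 3, with p = 0.4 in the two-sided exact permutation test. In control library 3 KRT18 was at 0 TPM and KRT8 at 0.184 TPM, so the value of 1.50 rests on the added 0.1 TPM. Only that control value lay above a sorted one, so this scale cannot decide whether the ratio separated the groups. On log2(CPM + 1) the two-sided exact permutation test gave p = 0.2 for each of the 3 pairs tested. KRT18 itself did not pass edgeR's test, with 22 and 0 counts in control libraries of nearly equal depth.

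KRT7, a type II keratin of glandular epithelia, had 7, 15 and 0 counts in sorted libraries 1, 2 and 3 and 28 and 9 in control libraries 2 and 3. The log2 fold change of KRT7 (chromosome 12, 52233243 to 52255853), -0.72, had an SE of 1.37 (edgeR's adjusted p = 0.797). KRT19 (chromosome 17, 41523617 to 41528308), a type I keratin of simple epithelia, had 0, 0 and 4 counts in sorted libraries 1, 2 and 3 and 0 and 0 in control libraries 2 and 3. Neither keratin separated the groups.

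Of the 51 other keratin genes, 32 had 0 counts in all libraries and 13 were tested. By edgeR 0 passed the threshold in either direction (2.2% of all genes higher, 2.4% lower), with a median log2 fold change of -0.05. By edgeR, 2 of the 13 were higher and 2 lower in sorted cells at an unadjusted p under 0.05, close to the shares of all genes (12.2% and 13.6%), and DESeq2 called 1 higher, KRT17, where it called 8.77% of all genes higher. With sorted library 3 left out edgeR called KRT17 and KRT36 higher and KRT82 lower, 2 and 1 of the 13, in a fit that called 15.4% of all genes higher and 16.8% lower. The most abundant by TPM were KRT79 with 8.41, 11.1 and 8.77 CPM in sorted libraries 1, 2 and 3 and 9.50 and 9.97 CPM in control libraries 2 and 3, and KRT15 with 8.30, 8.86 and 3.10 CPM in sorted libraries and 8.61 and 8.43 CPM in controls. Their log2 fold changes were -0.05 and -0.32 (edgeR's adjusted p = 0.936 and 0.714). KRT17, a keratin of basal and stressed epithelia named here after its values were seen, had 31, 31 and 135 counts in sorted libraries 1, 2 and 3 and 7 and 0 in control libraries 2 and 3. All sorted libraries were above both controls, and the log2 fold change was 5.34 with an SE of 1.60 (edgeR's adjusted p = 0.107), 3.75 without sorted library 3 (edgeR's adjusted p = 0.0462).

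Of 6 epithelial markers 2 were tested and 1 rose by edgeR, where 2.2% of all tested genes rose. It was CLDN7, a tight junction claudin, with 4.18, 6.26 and 8.92 CPM in sorted libraries 1, 2 and 3 and 0.534 and 0.657 CPM in control libraries 2 and 3 (log2 fold change 3.42, SE 0.48, edgeR's adjusted p = 0.0252). The call was lost without control library 2 (edgeR's adjusted p = 0.293), control library 3 (0.271), sorted library 1 (0.0701) or sorted library 2 (0.0788) and on log2(TPM + 0.1) (0.0631, limma-trend), with log2 fold changes of 3.13 to 3.65 over the fits that each left out 1 library. CDH1, which encodes E-cadherin, had 0 counts in the 3 sorted libraries and 2 and 6 in control libraries 2 and 3. EPCAM, an epithelial adhesion molecule, had 0, 8 and 2 counts in sorted libraries 1, 2 and 3 and 38 and 40 in control libraries 2 and 3, and ESRP1 and GRHL2 had 0 in all 5. The log2 fold change of EPCAM was -2.81 (edgeR's adjusted p = 0.203). CLDN4, another claudin, had 2, 24 and 0 counts in sorted libraries 1, 2 and 3 and 7 and 0 in control libraries 2 and 3. CDH1 and EPCAM were thus at or near 0 in sorted cells, and CLDN4 was in sorted libraries 1 and 3. The summed level of the 6 markers was 4.29 to 9.08 CPM in sorted libraries and 1.93 and 1.92 CPM in control libraries 2 and 3, most of it CLDN7 in the sorted ones. The part of CLDN7-expressing cells in the KRT8 result was not tested. Of the markers of neurons, muscle, macrophages and endothelium 4, 1, 3 and 4 were tested and 0 passed by edgeR, with 1, 0, 1 and 1 higher and 0 lower at an unadjusted p under 0.05 (12.2% and 13.6% of all genes). DESeq2 called SNAP25 of the 4 neuronal, ITGAM of the 3 macrophage and TIE1 of the 4 endothelial markers higher and 0 lower. It called 8.77% of all genes higher and 8.16% lower. ITGAM had 8, 18 and 13 counts in sorted libraries and 0 and 0 in controls. TIE1 had 0, 74 and 24 against 2 and 0, so its groups overlapped. Other tested markers had edgeR log2 fold changes of -1.30 (SYP), -0.36 (TUBB3), -0.03 (MAP2), 0.03 (CSF1R), 0.70 (CD14), 0.00 (PECAM1), -0.14 (VWF) and 2.75 (CDH5), and 0 of these passed.

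Lamins A and C, both made from LMNA, are abundant in stiff and mesenchymal tissues, and the B-type lamins LMNB1 and LMNB2 are found in nearly all nuclei. LMNA (chromosome 1, 156082573 to 156140081) had 329, 424 and 380.0 CPM in sorted libraries 1, 2 and 3 and 239 and 287 CPM in control libraries 2 and 3. All sorted libraries were above both controls, with means of 378 ± 48.0 CPM (SD, n = 3) and 263 ± 34.1 CPM (SD, n = 2). The log2 fold change of 0.52 (SE 0.22) did not pass (edgeR's quasi-likelihood test, adjusted p = 0.194). Without sorted library 3 it was again 0.52 and edgeR's adjusted p was 0.0253. On the authors' TPM the log2 difference was -0.47, on the scale with a median of -0.64.

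LMNB1 (chromosome 5, 126776623 to 126837020) had 25.9, 37.6 and 42.6 CPM in sorted libraries 1, 2 and 3 and 29.2 and 32.5 CPM in control libraries 2 and 3. The controls lay within the sorted range, and the log2 fold change of 0.20 (SE 0.26) did not pass (edgeR's quasi-likelihood test, adjusted p = 0.692). With scaling by library size alone it was -0.24, where the median of all genes was -0.40, and on the authors' TPM -0.69, where it was -0.64. LMNB2, the other B-type lamin, had 164, 184 and 75.5 CPM in sorted libraries 1, 2 and 3 and 137 and 140 CPM in control libraries 2 and 3. Sorted library 3 was low and the other sorted libraries high, so that the log2 fold change of LMNB2 was 0.03 with all libraries (edgeR's adjusted p = 0.976) and 0.33 without sorted library 3 (edgeR's adjusted p = 0.0383).

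Per length, LMNA made up most of the lamin transcripts, at 73.5%, 74.7% and 82.5% of the summed TPM of the 3 lamin genes in sorted libraries 1, 2 and 3 and 70.5% and 72.3% in control libraries 2 and 3. LMNB1 made up 5.36% to 8.29% in sorted libraries and 7.51% and 7.22% in control libraries 2 and 3. The log2 ratio of LMNA to LMNB1 was 3.76, 3.57 and 3.30 in sorted libraries 1, 2 and 3 and 3.22 and 3.32 in control libraries 2 and 3. Its means were 3.54 ± 0.23 in sorted cells (SD, n = 3) and 3.27 ± 0.07 in controls (SD, n = 2), the groups overlapped, and the two-sided exact permutation test gave p = 0.4.

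**Figure D3:**
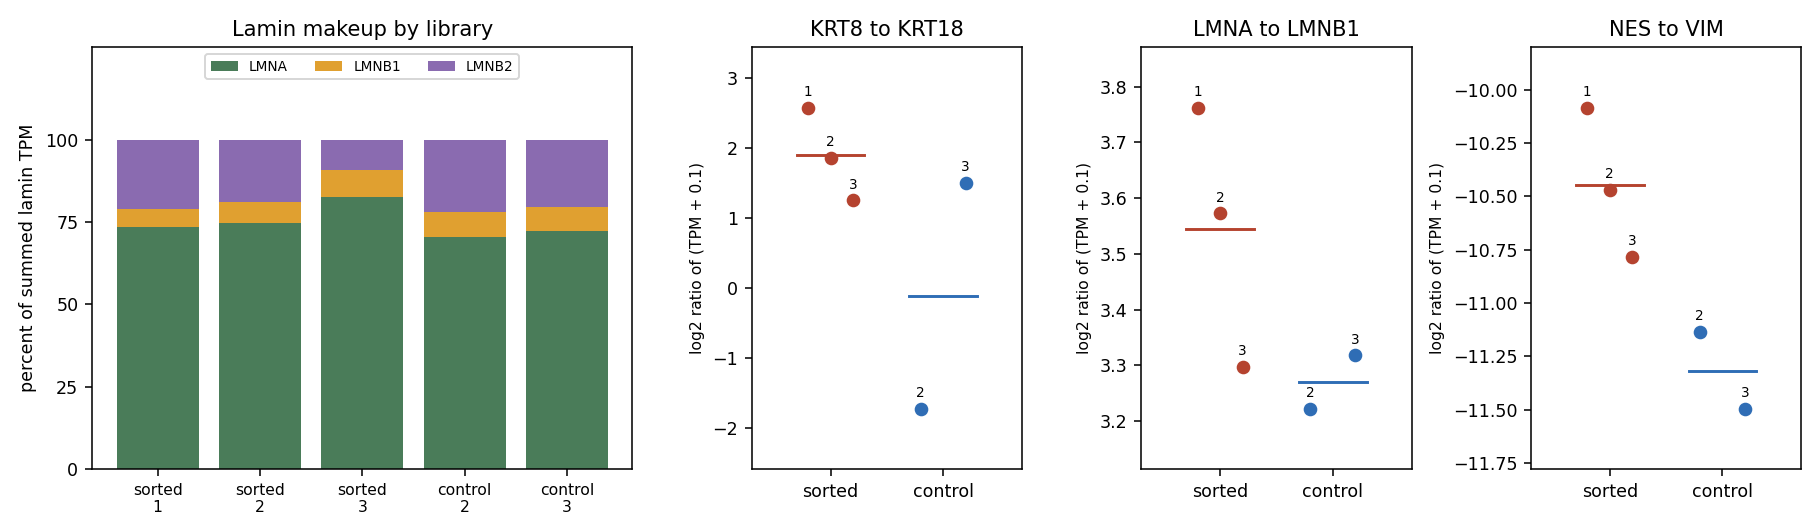
Left, the share of each lamin gene in the summed lamin TPM of each library, in percent; right, log2 ratios of (TPM + 0.1) within each library for 3 pairs, with numbered points for libraries and lines for group means. LMNA holds 70.5% to 82.5% in every library, and on this scale the ratio of NES to VIM is the pair whose sorted and control points do not overlap.

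Among the 10 filament genes in order of level per length, VIM came first in both groups, followed by LMNA with 118 ± 44.5 TPM in sorted cells and 156 ± 24.6 TPM in controls (SD, n = 3 and 2) and by LMNB1 with 9.77 ± 3.07 and 16.0 ± 1.79 TPM. In sorted cells NES with 2.13 ± 0.80 TPM and KRT8 with 1.87 ± 0.66 TPM came next and lay within each other's spread. In controls NES with 1.19 ± 0.00378 TPM was followed by KRT7 with 0.411 ± 0.313 TPM, KRT18 with 0.325 ± 0.459 TPM and KRT8 with 0.155 ± 0.0401 TPM, which did not differ beyond their spread. GFAP, SYNM and KRT19 were lowest on average, with at most 0.107 TPM in any library.

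Among 11 other intermediate filament genes 5 were tested and 0 passed the threshold by edgeR (2.2% of all genes higher, 2.4% lower). Their median log2 fold change was 0.57. Unadjusted p-values of edgeR were under 0.05 for 1 higher and 0 lower genes of the 5 (12.2% and 13.6% of all genes), and DESeq2 called 1 higher, PRPH (8.77% of all genes). In the fit without sorted library 3 edgeR called 3 of the 5 higher, IFFO2, LMNB2 and PRPH, and 15.4% of all genes. LMNB2 and IFFO1 were the most abundant by TPM, and IFFO1, a nuclear filament protein, had 7.30, 10.4 and 2.72 CPM in sorted libraries 1, 2 and 3 and 10.6 and 8.30 CPM in control libraries 2 and 3 (log2 fold change -0.46, edgeR's adjusted p = 0.645). PRPH, the peripherin of peripheral neurons and a gene named after its values were seen, had 0.947, 1.76 and 1.74 CPM in sorted libraries and 0.119 and 0.301 CPM in controls, with a log2 fold change of 2.79 (SE 0.83, edgeR's adjusted p = 0.104). Its sorted libraries all lay above both controls, at low counts.

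Of 13 genes for linkers, chaperones and turnover factors of filaments, 10 were tested and 0 passed by edgeR (2.2% of all genes higher, 2.4% lower). Their median log2 fold change was 0.46. Before adjustment edgeR's p was under 0.05 for 2 higher genes and 1 lower gene of the 10 (12.2% and 13.6% of all genes), and DESeq2 called 1 higher, EPPK1, which encodes epiplakin (8.77% of all genes). With sorted library 3 left out edgeR called EPPK1, HSPB1, PLEC and PPL higher, 4 of the 10, where it called 15.4% of all genes higher. DST, a giant linker of filaments to junctions and microtubules, had 927, 343 and 271 CPM in sorted libraries 1, 2 and 3 and 934 and 859 CPM in control libraries 2 and 3 (log2 fold change -0.80, edgeR's adjusted p = 0.397). Sorted library 1 was level with the controls and the other sorted libraries were far lower. HSPB1, a small heat shock protein that binds filaments, had 28.8, 37.3 and 9.38 CPM in sorted libraries and 21.5 and 15.3 CPM in controls (log2 fold change 0.46, edgeR's adjusted p = 0.662).

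Of 9 genes for kinases of intermediate filaments, the CDK5 activator CDK5R1 among them, all were tested. By edgeR 0 passed (2.2% of all genes higher, 2.4% lower), with a median log2 fold change of -0.35. Unadjusted, edgeR's p was under 0.05 for 0 higher and 3 lower genes of the 9 (12.2% and 13.6% of all genes), and DESeq2 called 3 lower, PRKCE, ROCK1 and ROCK2 (8.16% of all genes). In the fit without sorted library 3 edgeR called 1 of the 9 lower, PRKCE, and 16.8% of all genes. CDK1, the mitotic kinase whose targets include lamins, vimentin and nestin, had 178, 173 and 309 CPM in sorted libraries 1, 2 and 3 and 195 and 199 CPM in control libraries 2 and 3 (log2 fold change 0.16, edgeR's adjusted p = 0.799). CDK5, a neuronal kinase of nestin, had 31.5, 36.5 and 27.1 CPM in sorted libraries and 31.3 and 28.1 CPM in controls (log2 fold change 0.10, edgeR's adjusted p = 0.826). Neither kinase separated the groups.

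Prelamin A is farnesylated and then cut to mature lamin A by the protease ZMPSTE24. Of 7 genes of lamin maturation and cleavage all were tested and 0 passed by edgeR (2.2% of all genes higher, 2.4% lower). Their median log2 fold change was -0.32. Before adjustment edgeR's p was under 0.05 for 0 higher and 2 lower genes of the 7 (12.2% and 13.6% of all genes), and DESeq2 called 1 lower, CASP6, a caspase that cleaves lamin A (8.16% of all genes). ZMPSTE24 had 113, 113 and 79.7 CPM in sorted libraries 1, 2 and 3 and 165 and 147 CPM in control libraries 2 and 3. Every sorted library was below both controls, and the log2 fold change was -0.61 (SE 0.22, edgeR's adjusted p = 0.151). Without sorted library 3 edgeR called CASP6 and ZMPSTE24 lower, 2 of the 7, and 16.8% of all genes. FNTA, a farnesyltransferase subunit, had 66.4, 55.6 and 96.3 CPM in sorted libraries and 51.3 and 56.1 CPM in controls (log2 fold change 0.44, edgeR's adjusted p = 0.364).

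Of 21 lamina partners and nuclear envelope bridge genes 20 were tested, and by edgeR 0 rose and 1 fell. Among all tested genes 2.2% rose and 2.4% fell by that test. The median log2 fold change of the 20 was -0.13. Unadjusted, edgeR's p was under 0.05 for 3 higher and 4 lower genes of the 20 (12.2% and 13.6% of all genes), and DESeq2 called 2 lower, LBR and TMPO (8.16% of all genes). TMPO, which encodes the lamina-associated polypeptides LAP2, fell, with 66.0, 72.5 and 63.2 CPM in sorted libraries 1, 2 and 3 and 121 and 124 CPM in control libraries 2 and 3. The groups were far apart, at means of 67.3 ± 4.77 CPM (SD, n = 3) and 123 ± 2.64 CPM (SD, n = 2), and the log2 fold change was -0.87 (SE 0.17, edgeR's adjusted p = 0.0447). The call was lost with the replicate block (edgeR's adjusted p = 0.165), with scaling by library size alone (0.0672) or by upper quartile (0.0526), on the TPM scale (0.0520, limma-trend on log2(TPM + 1)), and without control library 2 (edgeR's adjusted p = 0.396), control library 3 (0.402), sorted library 1 (0.116) or sorted library 2 (0.107). The log2 fold change was -0.86 with the block, -1.26 with library size alone, -0.80 with upper quartile scaling and -0.92 to -0.82 over the fits that each left out 1 library. Without sorted library 3 edgeR called 3 of the 20 higher, EMD, SUN1 and TMEM43, and 4 lower, LBR, TMPO, TOR1AIP1 and TOR1AIP2, where it called 15.4% of all genes higher and 16.8% lower. TMEM43, an inner nuclear membrane protein, had 153, 163 and 212 CPM in sorted libraries and 110 and 119 CPM in controls (log2 fold change 0.62, edgeR's adjusted p = 0.140). ANKLE2, a LEM-domain protein of nuclear envelope reassembly, had 119, 134 and 108 CPM in sorted libraries and 119 and 139 CPM in controls (log2 fold change -0.10, edgeR's adjusted p = 0.796).

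**Figure D4:**
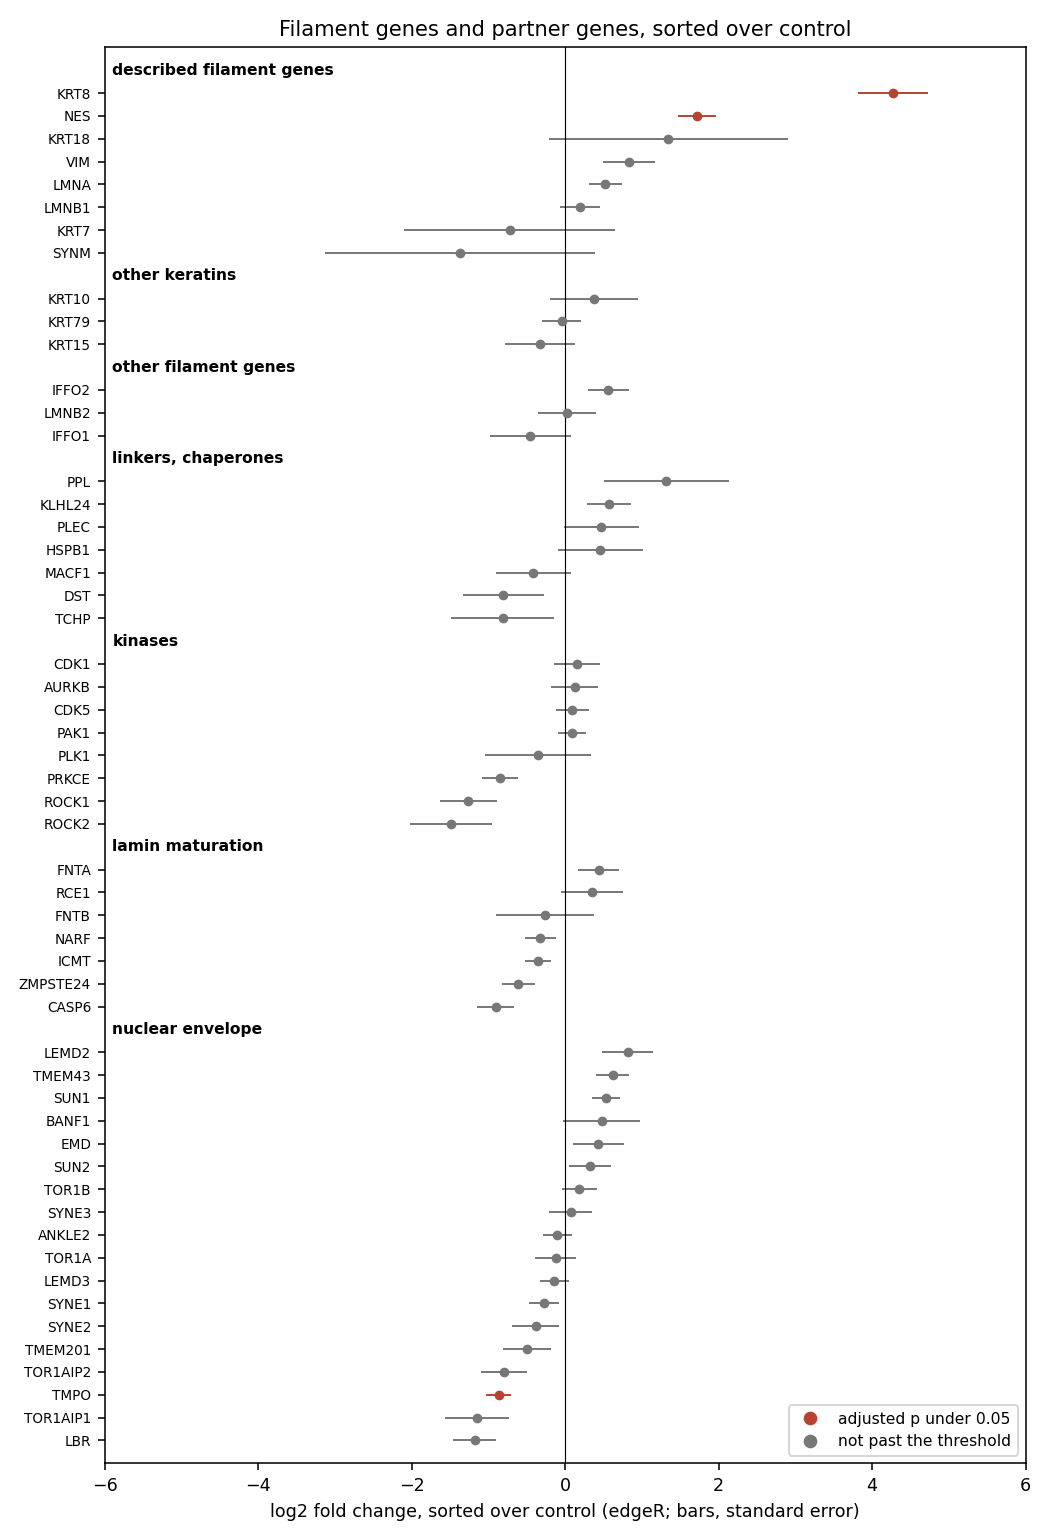
Log2 fold changes, sorted over control, of the 8 tested filament genes and of partner genes, each tested and with a mean of at least 5 CPM in either group, by list; bars are standard errors and red marks an adjusted p under 0.05 by edgeR's quasi-likelihood test. KRT8 and NES lie to the right of 0 and TMPO to the left in red, and all other genes drawn are grey.

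DESeq2 on all libraries gave an adjusted p of 4.11e-11 for KRT8 and 3.44e-07 for NES. When control library 2 or 3 was left out, edgeR made 0 calls over all genes, with 1789 and 1753 genes at an unadjusted p under 0.05, and DESeq2 called 308 and 299 higher and 138 and 140 lower. Without sorted library 3 the filament genes that rose were NES, KRT8, VIM and LMNA, 4 of the 8, in a fit in which 15.4% of all genes rose.

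**Figure D5:**
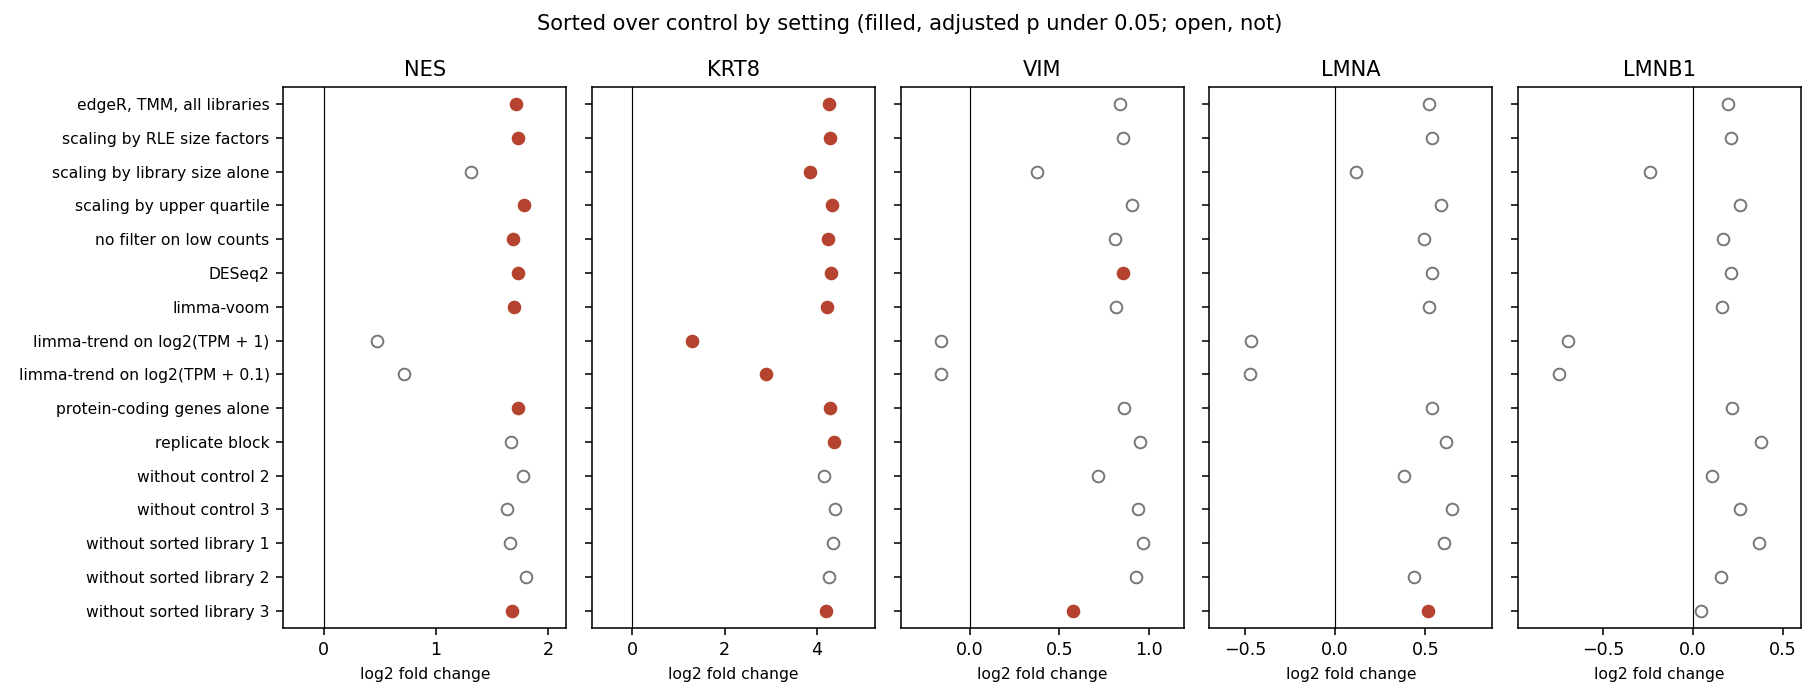
Log2 fold changes, sorted over control, of NES, KRT8, VIM, LMNA and LMNB1 under each processing setting, 1 row per setting; filled points have an adjusted p under 0.05 and open points do not. KRT8 and NES lie above 0 in every row drawn, and VIM, LMNA and LMNB1 lie below 0 in the rows on TPM, as does LMNB1 in the row on library size alone.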

How the data were processed

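Total RNA of 5 U87 MG libraries was sequenced after extraction with TRIzol and a micro column and preparation with a stranded total RNA kit, per the labels' protocols. The build GRCh38 and StringTie appear, with no role or version, per the submitters' processing notes. Not given in the sources used here were the aligner, strand setting and handling of reads with several matches. Per the file headers, the deposited table held an estimated count (whole numbers, not normalised), FPKM and TPM per gene and library, all computed by the authors; FPKM was not used.

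Counts were tested in R 4.3.3 with edgeR 4.0.16: filterByExpr, TMM factors, robust quasi-likelihood test of the group term, and Benjamini-Hochberg adjustment over 16304 genes, with calls under 0.05. A standard error of a log2 fold change was its size divided by the square root of F. Low counts have exact Poisson 95% intervals, and a count of 0 allows up to 3 counts. Depth was 17716823 to 29841238 counts, and the median standard error was 0.35. Chi-square per degree of freedom between any pair of libraries was at least 20.0, so none repeated another. Gene positions come from RefSeq GRCh38.p14, which matched 44698 of 46427 genes (96.3%). Coding sequences were compared in GENCODE 29. Among the partner genes tested 1 is not named here. Ratios within a library used log2(TPM + 0.1), the pseudocount being added because KRT18 is listed at 0 in 1 library, and were compared by exact permutation (scipy 1.17.1). Their alternative scale was log2(CPM + 1).

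The filament genes and all lists were chosen with earlier results of these data known. Named were the 10 filament genes; per partner list up to 6 genes past the threshold and the 2 of highest mean TPM; for NES, the 5 most alike genes; and marker genes where a result turned on them. Genes that DESeq2 or the fit without sorted library 3 called were named after their values were seen. Alternatives were other scalings, no filter, DESeq2 1.42.0, limma-voom and limma-trend (limma 3.58.1), protein-coding genes alone, a replicate block and each library left out.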

Additional observations from a re-analysis of the deposited data

How the results depend on the processing

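KRT8 and NES kept a positive log2 fold change under every alternative run, and KRT8 stayed past the threshold except when 1 library other than sorted library 3 was left out with edgeR. Of the filament genes, the number that rose, 2 with all libraries, was 1 with scaling by library size alone, on log2(TPM + 1), on log2(TPM + 0.1) and with the replicate block, and 0 to 4 over fits that left out 1 library. With DESeq2, chosen for these fits after seeing the data, it was 1 without control library 3 and 4 without sorted library 3. Over all genes, 359 higher and 392 lower calls became 113 higher with library size alone, 1429 and 1331 with DESeq2, 617 and 873 with limma-voom, 98 and 1508 on log2(TPM + 1), 60 higher on log2(TPM + 0.1), and 192 and 219 with the replicate block. Leaving out 1 library gave 0 to 2477 higher and 0 to 2695 lower with edgeR. With DESeq2 it gave 991 and 997 without sorted library 1, 1057 and 858 without sorted library 2, 2520 and 2693 without sorted library 3, 308 and 138 without control library 2, and 299 and 140 without control library 3. The share of higher calls, 47.8% with TMM, was 26.5% with library size alone, 6.10% on log2(TPM + 1) and 11.9% on log2(TPM + 0.1), where the median of all genes moved to -0.40, -0.64 and -0.94; no filter gave 472 and 587. The cause was not tested. Whether the replicate numbers pair the libraries was not settled. Deviations from group means correlated at 0.067 for number 2 and 0.096 for number 3, over 2 shared numbers only. With 2 controls the deviations of one mirror those of the other, so these values cannot decide it. With the replicate block, NES lost its call (adjusted p = 0.0727) and KRT8 kept it (0.0264).

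Log2 fold changes that turned sign belonged to genes not past the threshold. On log2(TPM + 1) and log2(TPM + 0.1) they were -0.16 and -0.16 for VIM, -0.47 and -0.47 for LMNA, -0.69 and -0.75 for LMNB1, -0.98 and -1.03 for LMNB2, -0.65 and -0.70 for HSPB1, -0.85 and -0.86 for CDK1, -0.84 and -0.88 for CDK5, -0.54 and -0.56 for FNTA and -0.33 and -0.34 for TMEM43. With library size alone they were -0.24 for LMNB1, -0.30 for LMNB2, -0.31 for CDK1, -0.28 for CDK5 and -0.016 for FNTA. KRT79 turned to 0.021 with upper quartile scaling and 0.020 with the replicate block, and LMNB2 to -0.070 with limma-voom and -0.23 with the replicate block. Over fits that left out 1 library, the values ran from -1.36 to 0.37 for KRT7, -0.17 to 0.023 for KRT79, -0.56 to 0.012 for KRT15, -0.21 to 0.33 for LMNB2, -0.17 to 0.31 for CDK1, -0.011 to 0.20 for CDK5 and -0.21 to 0.0041 for ANKLE2. A fit that leaves a control out assumes that the lone control varies like the sorted libraries. SYNM, KRT7 and KRT18, each with at most 28 counts in a library, had standard errors of 1.76, 1.37 and 1.55, and the part of depth in them was not tested.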
